A study of Mus musculus with 8 samples.

Results

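The subunits of the oxidative phosphorylation system were examined in whole pancreas of C57BL/6 mice aged 1 week, in 4 Glis3KO2 samples and 4 wild type (WT) samples. Members were the genes whose array name begins with Nduf, Uqcr, Atp5, Cox4, Cox5, Cox6, Cox7 or Cox8, together with Sdha, Sdhb, Sdhc, Sdhd, Cycs and Cyc1. This gave 84 genes, and 83 of them had at least 1 probe well above background on 4 or more of the 8 arrays. Each gene was read from its brightest such probe, and 81 of the 83 were well above background on all 8 arrays. Cox8c was left out, with a probe well above background on 1 Glis3KO2 array and 1 WT array. Of the 83 genes, 80 encode structural subunits or cytochrome c. Ndufaf1 is an assembly factor, and Cox4nb (now Emc8) and Atp5s (now Dmac2l) were caught by the prefix of their name.

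The labels give Glis3KO2 as a knockout of Glis3 on this strain, and neither the deleted part nor the litters of the pups are stated. Glis3 is a zinc finger transcription factor that acts in the development of pancreatic beta cells, and the title of the series places the comparison there. Total RNA was labelled with Cy3 and hybridised to 1 Agilent single-colour array per sample, and 33239 of 41174 probes were tested. Levels are log2 signals set against the 75th percentile of their own array, and differences are Glis3KO2 minus WT on that log2 scale. The p-values reflect the spread among these 8 samples alone, which may be partly technical.

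Oxidative phosphorylation takes place in the inner mitochondrial membrane. Complex I and complex II pass electrons from NADH and succinate to ubiquinone, complex III passes them to cytochrome c, and complex IV passes them to oxygen. Complexes I, III and IV pump protons, and complex V, the ATP synthase, uses the resulting gradient to make ATP. In beta cells this ATP closes potassium channels and so couples glucose metabolism to insulin release, while acinar cells, which make up most of the pancreas, use it for the synthesis and secretion of digestive enzymes. Most subunits are encoded in the nucleus, and a few core subunits of complexes I, III, IV and V are encoded by mitochondrial DNA. No probe carried the name of one of those, so the values below are for nuclear genes.

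Nuclear subunit genes have been linked to the transcription factors NRF1 and GABP, an ETS family factor, and their letters were looked for in the promoters. RefSeq promoter windows (build GRCm38.p6, 250 bases before to 50 bases after the start) were matched for 66 of the 80 structural genes. The NRF1 letters GCGCATGC, read on both strands, stood in 11 of the 66 windows (16.7%) against 2.8% of the windows of all 27025 genes, and the ETS letters CCGGAAG stood in 15 (22.7%) against 9.12%. Among windows of protein-coding genes the shares were 3.61% and 11.9%. The stretches below were chosen among named members whose windows hold the letters, and capitals mark the NRF1 letters (GCATGCGC on the other strand) and the ETS letters (CTTCCGG on the other strand). Other named members, among them Ndufb11, Cox7c and Cox8b, had neither in their windows.
Cycs, cytochrome c, chr6:50566602-50566649, minus strand: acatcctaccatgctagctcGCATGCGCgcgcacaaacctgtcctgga
Ndufa6, complex I, chr15:82354347-82354394, minus strand: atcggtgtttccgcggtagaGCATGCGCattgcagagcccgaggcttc
Ndufa8, complex I, chr2:36049339-36049366, minus strand: gcttgcgcgtcgctggagacGCATGCGC
Ndufb6, complex I, chr4:40279627-40279671, minus strand: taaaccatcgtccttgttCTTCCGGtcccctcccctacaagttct
Sdhb, complex II, chr4:140961197-140961244, plus strand: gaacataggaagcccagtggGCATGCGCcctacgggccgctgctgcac
Atp5l, complex V, chr9:44920928-44920992, minus strand: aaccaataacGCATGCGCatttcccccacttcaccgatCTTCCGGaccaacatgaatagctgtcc
The 4 other letter strings searched were those of YY1 (AAGATGG, in 15.2% of the members' windows against 6.48% of all), SP1 (GGGCGG, 40.9% against 35.9%), ERR (AAGGTCA, 12.1% against 4.66%) and CRE (TGACGTCA, 7.58% against 1.88%). In 1 member's window a match overlapped a match of another string. The 21 members with NRF1 or ETS letters had a median difference of 0.08 and ran from -0.21 to 0.27, and the 45 without had a median of 0.06 and ran from -0.15 to 0.25. The members at both ends of complex I, Ndufa6 and Ndufb6, were thus in the set with the letters. Neither set holds Cox6a2, which had the largest difference of all members (-0.94) and no matched window. A match is a description of the sequence and not a site.

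The 4 Glis3KO2 arrays shared 1 slide and the 4 WT arrays another, so genotype and slide cannot be told apart. Per array, between 31353 and 35613 probes were well above background, and the number of arrays limits the precision. Glis3 had 1 probe on the array, which was well above background on 0 of 4 Glis3KO2 arrays and on 3 of 4 WT arrays. Its level was -6.07, -6.43, -5.93 and -6.15 in Glis3KO2 and -6.06, -5.40, -5.49 and -5.34 in WT. Whether that probe lies in the deleted part is not given in the sources used here. Glis3KO2 replicates 3 and 4 scored 39.5 and 58.9 on the first principal component, where the other 6 arrays lay between -26.2 and 1.16. Xist, the RNA that coats the silenced X chromosome in females, was at 4.85, 4.86 and 4.72 in Glis3KO2 replicates 1, 3 and 4 and at -6.03 in replicate 2, against 5.11 in WT replicate 4 and -6.97 to -5.87 in the other WT samples, so the sexes were not balanced. Most beta cell markers fell in Glis3KO2: 7 of 10 passed the threshold as lower, with a median difference of -1.38 and Ins2, the main insulin gene, at -3.70. Iapp was higher at 0.45 (SE 0.27, limma adjusted p = 0.688), and Pdx1 was at -0.06 (SE 0.11). None of 13 acinar markers passed the threshold, with a median of -0.14 and 1 lower at an unadjusted p under 0.05. A further list of 8 endocrine markers, some of which beta cells also express (Chga, Chgb and Isl1), changed too. In that list Chgb (1.77) passed as higher and Chga (-1.93) and Ppy (-2.01) as lower. Its median was -0.59, with 5 lower at an unadjusted p under 0.05. The lists of duct, fat, erythroid, endothelial, mesenchymal, nerve and glia, leukocyte and liver markers held 0 genes past the threshold in limma, and 3 higher and 7 lower at an unadjusted p under 0.05. Of the lower ones, 3 were among 8 nerve and glia markers (median -0.29) and 2 among 7 endothelial markers (median -0.16). Neither list held a positive difference, and all 8 mesenchymal markers were positive (median 0.14). Among all probes, 3.11% were higher and 5.89% lower at an unadjusted p under 0.05.

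None of the 83 genes passed the threshold in either direction, where the background over all probes tested was 0.0812% higher and 0.174% lower in Glis3KO2 (limma, Benjamini-Hochberg adjusted p under 0.05). At an unadjusted p under 0.05, 1 member was higher and 1 lower, against 3.11% higher and 5.89% lower among all probes. The median difference of the members was 0.06, beside -0.01 over all tested probes, and 56 of the 83 members had a positive difference, against 48.1% of all probes. Without Glis3KO2 replicate 4 the members' median was -0.01 and 37 were positive, and with scaling to spike-in transcripts in place of the 75th percentile 82 were positive, where the median of all tested probes was 0.27. In 78 of the 83 members the difference was smaller than 0.2 in size.

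The intervals show how large a change these data leave room for. In 80 of the 83 members (96.4%) the 95% interval of the difference lay within a 1.5-fold change in either direction, which holds for 64.3% of all tested probes. Subunit probes were bright, and among the 1604 tested probes at least as bright as the members' lower quartile the share was 93.2%. The 3 members whose interval reached past 1.5-fold, Cox6a2, Cox8b and Cox7c, all encode complex IV subunits. The median standard error was 0.12 over the members and 0.15 over all tested probes.

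**Figure D1:**
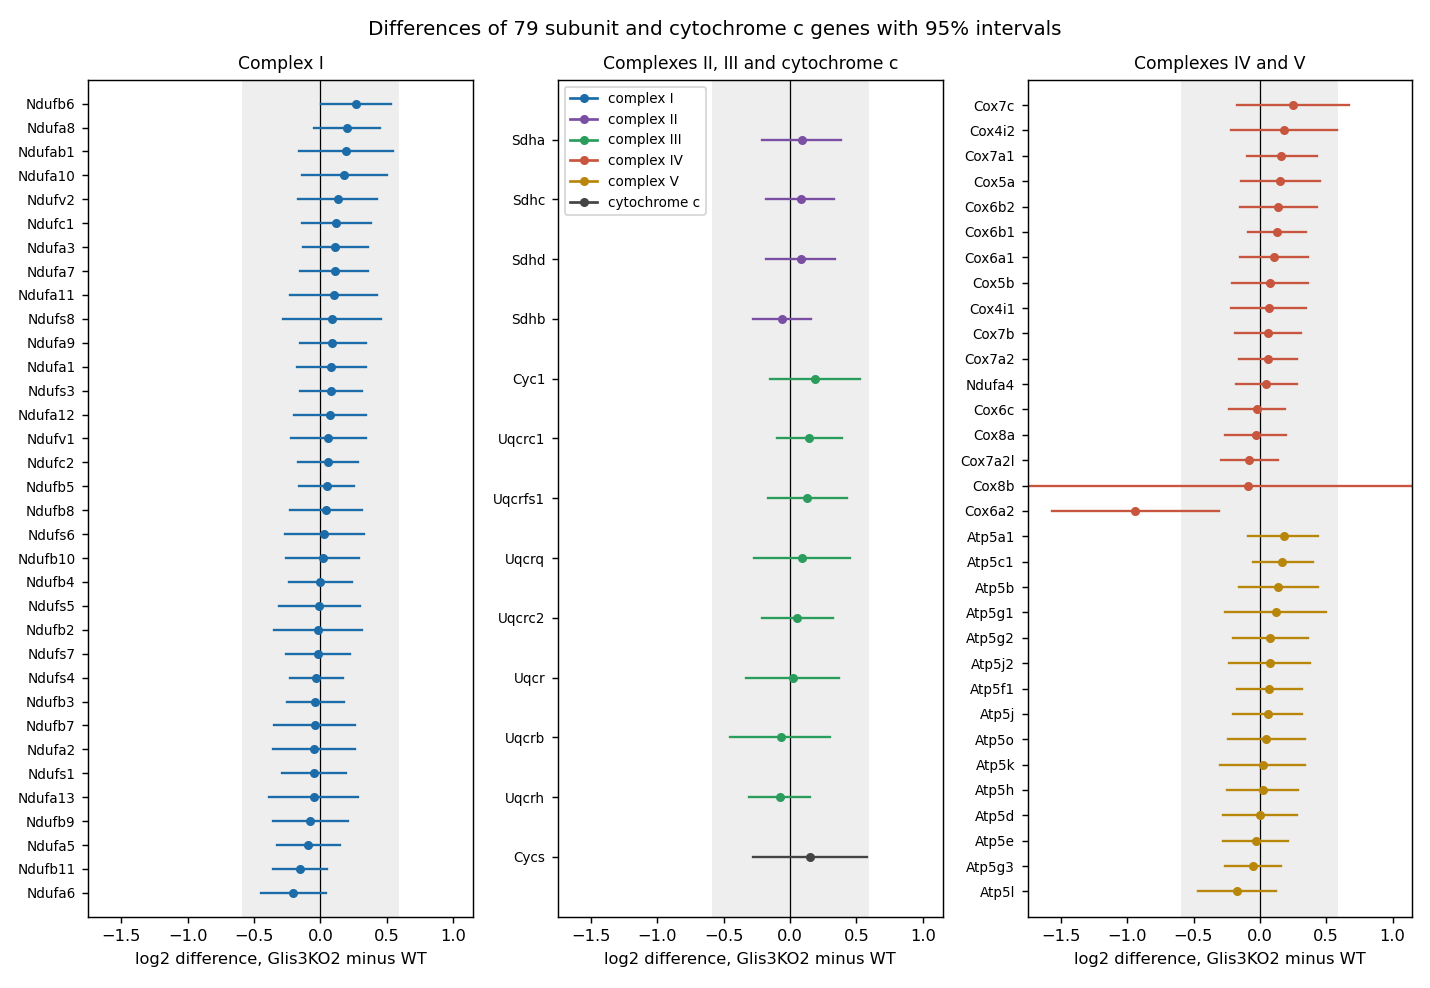
Log2 difference, Glis3KO2 minus WT, of 79 of the 80 structural genes (points) with 95% intervals (lines), grouped and coloured by complex; the grey band marks 1.5-fold in either direction. All intervals drawn for complexes I, II, III and V lie in the band, and Cox6a2 lies furthest from 0 at -0.94; the interval of Cox8b runs past both ends of the axis, from -2.46 to 2.27.

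Complex I, the NADH dehydrogenase and the largest of the complexes, had 35 structural genes among the members, with a median difference of 0.05 and 21 of 35 positive. All 35 intervals lay within 1.5-fold. Ndufb6, an accessory subunit of the membrane arm, had the largest positive difference: its level was 3.80, 3.77, 4.04 and 4.01 in Glis3KO2 and 3.68, 3.75, 3.71 and 3.42 in WT. The lowest Glis3KO2 sample thus stood just above the highest WT sample, and the difference was 0.27 (SE 0.12, limma unadjusted p = 0.0479, adjusted p = 0.55). Ndufb6 was the one member higher without overlap between the groups, which 1.85% of all probes were. Ndufa8, an accessory subunit with cysteine motifs on the intermembrane side, was at 3.14, 3.05, 3.31 and 3.41 in Glis3KO2 and at 2.91, 3.04, 3.09 and 3.05 in WT. Its groups overlapped through Glis3KO2 replicate 2, and its difference was 0.20 (SE 0.11, limma adjusted p = 0.644).

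Both members that were lower without overlap, which 3.36% of all probes were, also belong to complex I. Ndufa6, an accessory subunit that binds the mitochondrial acyl carrier protein, was at 3.28, 3.62, 3.57 and 3.58 in Glis3KO2 and at 3.63, 3.81, 3.73 and 3.71 in WT. Replicate 1 stood lowest in Glis3KO2, the other 3 samples lay just below the WT samples, and the difference was -0.21 (SE 0.11, limma adjusted p = 0.63). Ndufb11, an X-linked subunit of the membrane arm, was at 6.31, 6.18, 6.31 and 6.40 in Glis3KO2 and at 6.49, 6.43, 6.43 and 6.48 in WT. Its difference was -0.15 (SE 0.09, limma adjusted p = 0.682). Ndufb11, Ndufa1 and Cox7b are the 3 X-linked members, and the number of Xist-high arrays differs between the groups. The Xist-low Glis3KO2 sample was the lowest of its group in all 3, at 6.18 for Ndufb11, 5.36 for Ndufa1 and 4.07 for Cox7b. In WT the Xist-high sample was second only to replicate 1 for Ndufb11 at 6.48. It was the lowest of its group for Ndufa1 at 5.40, and for Cox7b only replicate 3 lay below its 4.10. The part of sex in these values was not tested. Ndufa1, a small membrane subunit needed for assembly, had a difference of 0.08 (SE 0.11), and Cox7b, a complex IV subunit, one of 0.06 (SE 0.11).

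Core subunits of complex I, which carry out the electron transfer, had small differences as well. Ndufv1, which binds NADH and the flavin, differed by 0.06, and its iron-sulphur partner Ndufv2 by 0.13. Ndufs1, with the iron-sulphur clusters that follow the flavin, differed by -0.05. Ndufs7, whose iron-sulphur cluster passes electrons to ubiquinone, differed by -0.02. Ndufs3 differed by 0.08 and Ndufs8 by 0.09, so that these 6 core subunits ran from -0.05 to 0.13, each with a limma adjusted p of 0.83 or more.

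Complex II, the succinate dehydrogenase shared with the citric acid cycle, is made of 4 nuclear subunits, and all 4 were measured. Sdha, the flavoprotein that oxidises succinate, was at 1.14, 1.38, 1.68 and 1.57 in Glis3KO2 and at 1.37, 1.44, 1.35 and 1.25 in WT, a difference of 0.09 (SE 0.13). The Glis3KO2 samples spread on both sides of the WT samples at this probe, while a second Sdha probe was higher in Glis3KO2 without overlap (0.23, SE 0.09, limma unadjusted p = 0.0339, adjusted p = 0.508). Sdhb, the iron-sulphur subunit, was at 3.18, 3.09, 3.25 and 3.30 in Glis3KO2 and at 3.34, 3.36, 3.17 and 3.20 in WT, a difference of -0.06 (SE 0.10). The membrane anchor Sdhc was at 2.98, 2.82, 2.80 and 3.07 in Glis3KO2 and at 3.02, 2.85, 2.67 and 2.83 in WT. The other anchor, Sdhd, was at 3.56, 3.54, 3.69 and 3.94 in Glis3KO2 and at 3.54, 3.67, 3.54 and 3.67 in WT. Both anchors differed by 0.08 (SE 0.11), their groups overlapped, and the limma adjusted p of the 4 subunits was between 0.894 and 0.908.

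Complex III, the cytochrome bc1 complex, had 8 genes with a median difference of 0.07, 6 of them positive. Cyc1, the cytochrome c1 that hands electrons to cytochrome c, was at 4.16, 3.87, 4.00 and 4.50 in Glis3KO2 and at 4.02, 4.09, 3.78 and 3.87 in WT. Replicate 4 was the highest Glis3KO2 sample and replicate 2 was within the WT range, and the difference was 0.19 (SE 0.15, limma adjusted p = 0.759). Uqcrc1, a core protein of the matrix side, was at 4.91, 4.61, 4.61 and 4.84 in Glis3KO2 and at 4.63, 4.71, 4.51 and 4.55 in WT, a difference of 0.14 (SE 0.11). At the other end, Uqcrh, the hinge subunit that helps cytochrome c1 and cytochrome c to interact, was at 6.85, 6.73, 6.63 and 6.79 in Glis3KO2 and at 6.79, 6.78, 6.75 and 7.0 in WT (difference -0.08, SE 0.10). Uqcrb, the ubiquinone-binding subunit, was at 3.55, 3.34, 3.52 and 4.10 in Glis3KO2 and at 3.63, 3.82, 3.55 and 3.80 in WT (difference -0.07, SE 0.17). In Uqcrb 3 Glis3KO2 samples lay below or level with the lowest WT sample and replicate 4 lay above all WT samples.

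Cycs, the somatic cytochrome c that carries electrons between complexes III and IV and also acts in apoptosis, was at 4.02, 3.84, 4.2 and 4.73 in Glis3KO2 and at 3.93, 4.21, 3.89 and 4.16 in WT. Its difference was 0.15 (SE 0.19, limma adjusted p = 0.873). Replicate 4 was the one Glis3KO2 sample above all WT samples, and the difference without it was -0.03.

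Complex IV, the cytochrome c oxidase, had 17 genes, among them Ndufa4, which was first counted with complex I. The median difference was 0.07, with 12 positive, and 14 of 17 intervals lay within 1.5-fold. Several of its subunits exist as pairs, with a ubiquitous form and a form restricted to muscle, lung, testis or other tissues. Cox4i1, the ubiquitous form of subunit 4, was at 6.65, 6.39 and 6.62 in the 3 Glis3KO2 samples with a value (the spot of replicate 3 was an outlier and was removed) and at 6.48, 6.63, 6.32 and 6.53 in WT. Cox4i2, the form known from lung and from low oxygen, was at -3.45, -3.48, -4.13 and -3.99 in Glis3KO2 and at -4.09, -4.01, -3.95 and -3.71 in WT. Their differences were 0.07 (SE 0.12) and 0.18 (SE 0.18), and in both genes the groups overlapped.

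Cox6a2 had the largest difference of all 83 members. It encodes the form of subunit 6a of heart and skeletal muscle, and its level was -1.71, -2.63, -2.70 and -2.35 in Glis3KO2 and -0.99, -2.07, -1.23 and -1.32 in WT. In Glis3KO2, 3 of 4 samples lay below every WT sample, and the groups overlapped through Glis3KO2 replicate 1 and WT replicate 2. The difference was -0.94 (SE 0.28, 95% interval -1.57 to -0.31), or 1.92-fold lower in Glis3KO2, with a limma unadjusted p of 0.00798 and an adjusted p of 0.349. Leaving out each array in turn gave differences from -1.17 to -0.80 and no adjusted p below 0.133. The ubiquitous partner Cox6a1 was at 7.67, 7.31, 7.37 and 7.64 in Glis3KO2 and at 7.36, 7.46, 7.31 and 7.44 in WT, a difference of 0.11 (SE 0.11), with groups that overlapped.

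Markers of other cell types are given beside Cox6a2. Of 15 striated muscle markers tested, 0 passed the threshold in limma, 0 had an unadjusted p under 0.05, and 10 had a positive difference, with a median of 0.07. The log2 of their summed signal was 1.97 to 2.48 in Glis3KO2 and 1.73 to 2.47 in WT, with the contractile genes Acta1 and Actc1 well above background on all arrays. Of 6 heart markers, 0 passed (1 lower at an unadjusted p under 0.05), with a median of -0.25 and summed levels of 0.32 to 0.73 in Glis3KO2 and 0.47 to 0.77 in WT. The beta cell markers, 7 of 10 of which passed as lower, had summed levels of 8.63, 7.75, 7.61 and 7.59 in Glis3KO2 and 9.67, 9.52, 9.78 and 9.82 in WT. Different genes led these sums in the groups. In Glis3KO2 the brightest was Iapp, at 8.17, 6.98, 6.85 and 7.09, against 6.77, 6.57, 6.99 and 6.95 in WT. In WT the brightest was Ins2, at 9.02, 8.77, 9.01 and 9.08, against 5.83, 5.31, 5.26 and 4.68 in Glis3KO2. The further endocrine markers, 3 of 8 of which passed, had summed levels of 8.61, 8.15, 7.83 and 7.98 in Glis3KO2 and 8.36, 8.39, 8.53 and 8.54 in WT. They include Chgb, which beta cells also express, at 7.26, 6.29, 6.34 and 6.57 in Glis3KO2 and 4.65, 4.70, 5.04 and 5.01 in WT. Glis3KO2 replicate 1, the highest of its group for Cox6a2, was also the highest for the beta cell, further endocrine, heart and acinar sums. The orders did not match throughout, since WT replicate 1 had the highest Cox6a2 level and the third beta cell sum of its group, and Glis3KO2 replicate 4 the second Cox6a2 level and the lowest beta cell sum. The part of these cell types in the Cox6a2 values was not tested, and fewer cells of a type and less RNA per cell cannot be told apart in whole tissue.

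Cox8b, the muscle and brown fat form of subunit 8, had levels of -2.59, -3.33, -4.02 and -7.83 in Glis3KO2 and -3.31, -5.30, -5.21 and -3.56 in WT. The probe was well above background on 3 of 4 Glis3KO2 arrays and on all 4 WT arrays, and replicate 4 of Glis3KO2 stood far below the rest. Its difference of -0.09 had a standard error of 1.05, and without that sample it was 1.03, so no direction can be given. The ubiquitous Cox8a was at 6.00, 5.78, 5.71 and 5.91 in Glis3KO2 and at 5.84, 5.92, 5.80 and 5.94 in WT (difference -0.03, SE 0.10). Of 8 white and shared fat markers tested, 0 passed the threshold in limma and 0 had an unadjusted p under 0.05, with a median difference of -0.01 and summed levels of 6.04, 6.25, 5.71 and 5.28 in Glis3KO2 and 6.07, 5.47, 5.54 and 6.09 in WT. Among them Adipoq, the fat cell hormone adiponectin, was at 0.39, 1.07, -0.66 and -4.10 in Glis3KO2 and at 0.84, -1.76, -1.88 and 0.76 in WT. Cox8b and Adipoq were thus both lowest in Glis3KO2 replicate 4, and in WT both were low in replicates 2 and 3, and the part of fat in the Cox8b values was not tested. Of 7 brown fat markers tested, which include Cox8b and Cox7a1, 0 passed the threshold (1 higher at an unadjusted p under 0.05), with a median difference of 0.12 and summed levels of 2.58 to 2.93 in Glis3KO2 and 2.68 to 2.81 in WT. Prdm16 led these sums, at 1.87 to 2.47 in Glis3KO2 and 2.10 to 2.39 in WT. The highest sum, 2.93, was that of Glis3KO2 replicate 4, where Cox8b was lowest.

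In the remaining pairs both forms had small positive differences. Cox6b1, the common form of subunit 6b, was at 1.48, 1.40, 1.51 and 1.69 in Glis3KO2 and at 1.32, 1.44, 1.42 and 1.39 in WT (difference 0.13, SE 0.10). Cox6b2, its testis form, was at 0.42, -0.02, -0.09 and 0.10 in Glis3KO2 and at -0.06, -0.07, -0.08 and 0.07 in WT (difference 0.14, SE 0.13). In Cox6b2 the WT samples lay close together and Glis3KO2 replicate 1 stood above them. Cox7a1, the muscle form of subunit 7a, was at 0.03, -0.26, -0.26 and -0.11 in Glis3KO2 and at -0.27, -0.27, -0.52 and -0.19 in WT (difference 0.16, SE 0.12). Cox7a2, the liver form that most tissues use, was at 4.64, 4.46, 4.59 and 4.75 in Glis3KO2 and at 4.56, 4.62, 4.51 and 4.50 in WT (difference 0.06, SE 0.10). Cox7a2l, a related protein that holds supercomplexes together, differed by -0.08 (SE 0.10). The limma adjusted p of these 5 genes was 0.731 or more, and their groups overlapped.

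Cox7c, a small membrane subunit, was the complex IV gene with the largest positive difference, and its level was 2.29, 2.38, 2.90 and 2.95 in Glis3KO2 and 2.14, 2.36, 2.69 and 2.33 in WT. Replicates 3 and 4 were high in Glis3KO2, and the difference of 0.25 (SE 0.19, 95% interval -0.17 to 0.67, limma adjusted p = 0.746) was -0.04 without both of them. Ndufa4 was at 4.92, 4.82, 5.05 and 5.02 in Glis3KO2 and at 4.79, 4.86, 4.90 and 5.05 in WT (difference 0.05, SE 0.10).

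**Figure D2:**
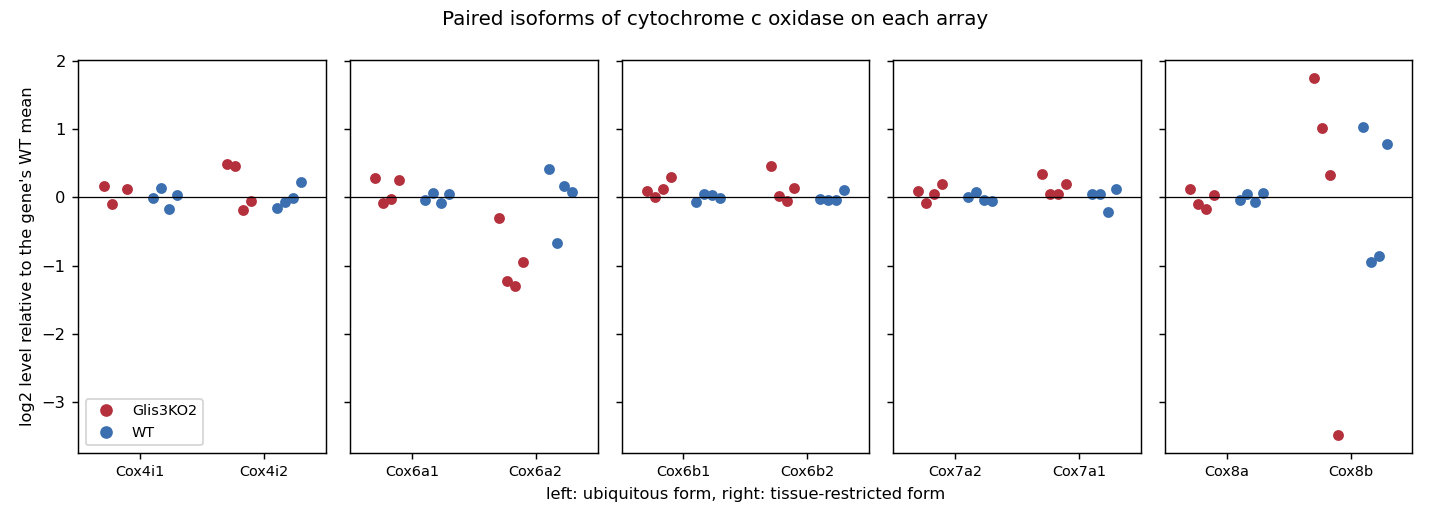
Levels of 5 isoform pairs of cytochrome c oxidase on each array, as log2 relative to the gene's mean over the WT arrays, with Glis3KO2 (red) left of WT (blue) and 1 point per array. The ubiquitous forms lie close to 0 in both groups, Cox6a2 is below 0 in all 4 Glis3KO2 samples with overlap of the groups, and Cox8b scatters over several log2 units.

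Complex V, the ATP synthase, had 15 genes with a median difference of 0.06, 11 of them positive, and all 15 intervals lay within 1.5-fold. Atp5a1, the alpha subunit of the catalytic head, was at 5.90, 5.78, 6.05 and 6.21 in Glis3KO2 and at 5.73, 5.77, 5.93 and 5.81 in WT (difference 0.18, SE 0.12). Atp5c1, the gamma subunit that turns inside the head, was at 6.37, 6.35, 6.57 and 6.62 in Glis3KO2 and at 6.29, 6.26, 6.36 and 6.31 in WT (difference 0.17, SE 0.10). For Atp5c1 Glis3KO2 replicate 2 lay just below the highest WT sample and the other 3 lay above it. Atp5l, subunit g of the membrane part, was at 4.90, 4.77, 4.48 and 4.87 in Glis3KO2 and at 5.04, 4.99, 4.69 and 4.99 in WT (difference -0.17, SE 0.13). The limma adjusted p of these 3 genes was between 0.672 and 0.751.

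The genes Atp5g1, Atp5g2 and Atp5g3 encode the same mature c subunit, of which the proton-driven ring of the ATP synthase is built, with different import sequences. Atp5g1 was at 4.57, 3.99, 4.26 and 4.70 in Glis3KO2 and at 4.36, 4.40, 4.04 and 4.25 in WT (difference 0.12, SE 0.17). Atp5g2 was at 5.95, 5.59, 5.63 and 6.00 in Glis3KO2 and at 5.72, 5.82, 5.63 and 5.66 in WT (difference 0.08, SE 0.12). Atp5g3 was at 6.50, 6.40, 6.56 and 6.62 in Glis3KO2 and at 6.53, 6.65, 6.54 and 6.55 in WT (difference -0.05, SE 0.09). The groups overlapped in all 3 genes, and in Atp5g1 and Atp5g2 the same 2 Glis3KO2 samples, replicates 1 and 4, were the higher ones.

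That order recurred over the family. Relative to the mean of the WT arrays, the median over the 83 members was 0.09, -0.10, -0.03 and 0.23 in Glis3KO2 replicates 1 to 4 and 0.0026, 0.06, -0.06 and -0.01 in WT replicates 1 to 4. Glis3KO2 replicate 4 was the highest of its group for 51 of the 79 structural genes with values on every array (64.6%), against 23.7% of all tested probes, and replicate 2 was the lowest for 45 (57%), against 20.1%. In WT, replicate 2 was the highest for 41 of 80 (51.2%, against 31.2% of all tested probes) and replicate 3 the lowest for 41 of 80 (51.2%, against 28.8%). The spread among Glis3KO2 arrays was thus wider than the difference between the group medians, and 73 of 83 members lay above the WT mean in replicate 4 but 17 of 83 in replicate 2.

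The members moved together from array to array. After subtracting each group's mean, the mean correlation between pairs of the 79 structural genes over the 8 arrays was 0.41, against 0.01 between pairs of all tested probes. It was 0.50 in complex I, 0.44 in complex II, 0.52 in complex III and 0.46 in complex V. In complex IV it was 0.17, and 0.28 without the 5 restricted isoforms Cox4i2, Cox6a2, Cox6b2, Cox7a1 and Cox8b. The mean was 0.42 for the citric acid cycle and pyruvate dehydrogenase, 0.38 for mitochondrial ribosomal proteins and 0.48 for cytosolic ribosomal proteins, but -0.01 for the regulators of mitochondrial biogenesis and mitochondrial DNA and 0.03 for glycolysis. All these pairs share the same 8 RNA preparations and the same scaling.

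**Figure D3:**
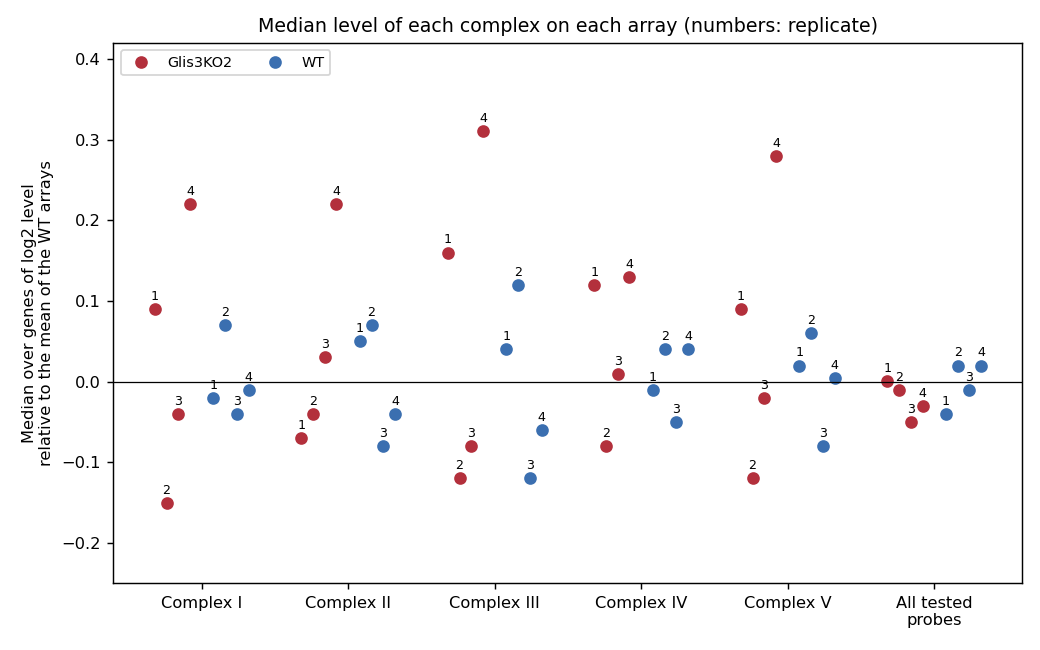
Median over the genes of each complex of the log2 level relative to the mean of the WT arrays, for each array (numbers are replicates), with Glis3KO2 (red) left of WT (blue) and all tested probes at the right. Glis3KO2 replicate 4 is the highest array in every complex, at 0.13 to 0.31, and the medians of all probes stay between -0.05 and 0.02.

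Probe composition was set against the difference between Glis3KO2 replicates 3 and 1. Other pairs of arrays within a genotype were not examined. Across 79 members, the difference of Glis3KO2 replicate 3 minus replicate 1 correlated with the percentage of G and C bases in the probe at r = -0.61 (Spearman -0.71), and across 33229 tested probes at r = -0.33 (Spearman -0.38). The points of each correlation share the same pair of arrays. The median of that difference was 0.03 for the 33 members with probes under 45% G and C and -0.23 for the 46 others, against 0.07 and -0.23 among all probes. The difference between genotypes correlated with composition at r = -0.25 over 80 members and 0.09 over all probes. The part of composition in the members' values was not tested.

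**Figure D4:**
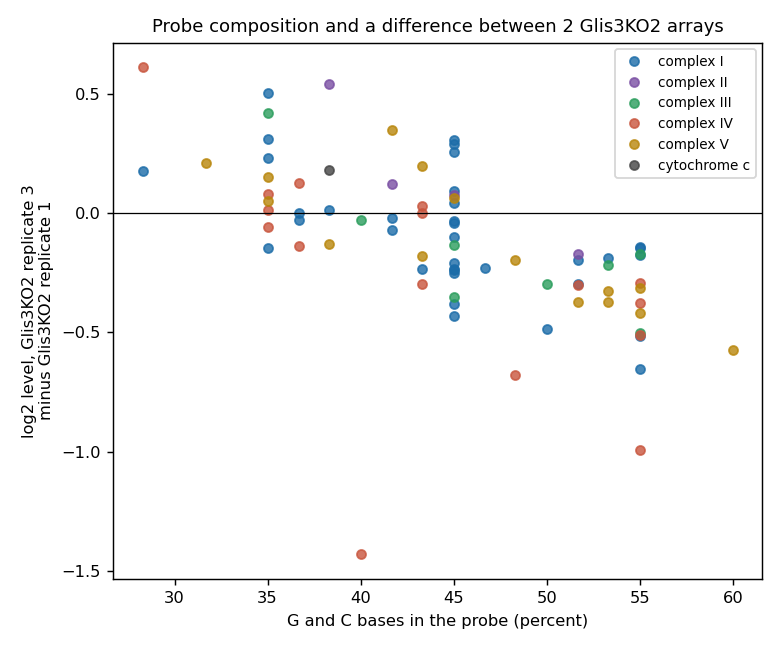
Percentage of G and C bases in the probe (horizontal) against the log2 level in Glis3KO2 replicate 3 minus that in Glis3KO2 replicate 1 (vertical), with 1 point for each of 79 structural members, coloured by complex. Of the 46 members at or above 45% G and C, 39 lie below 0, and of the 33 under 45%, 12 do, with Cox8b (40% G and C) the lowest point.

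Second probes gave a check on the brightest one. For 23 members the array held 29 further probes that passed the filter, 0 of which passed the threshold in limma and 2 of which had an unadjusted p under 0.05, and 27 of 29 lay within 0.3 of the brightest probe of the gene, with a median gap of 0.06. The exceptions were a Cox5a probe to another transcript record (-0.65, SE 0.43, against 0.15 for the brightest probe) and a Uqcrq probe to another record (-0.33, SE 0.11, against 0.09). That Cox5a probe was dim, with a Glis3KO2 mean of -5.86, and was well above background on 1 of 4 Glis3KO2 arrays and 4 of 4 WT arrays. The Uqcrq probe and the second Sdha probe were the 2 with an unadjusted p under 0.05. Another 10 genes of the family stand on the array under older names, found after the values were seen, and had differences of -0.21 to 0.19 with a median of 0.01, none past the threshold and 1 with an unadjusted p under 0.05. They include the subunits Ndufv3 (-0.05, SE 0.11) and Uqcr10 (0.02, SE 0.13).

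Genes that act with the respiratory chain were read from the same fit. Of 47 assembly factors tested, 0 passed the threshold in either direction (limma, 2 lower at an unadjusted p under 0.05), with a median difference of 0.01. Of 28 regulators of mitochondrial biogenesis and mitochondrial DNA, 0 passed and 0 had an unadjusted p under 0.05, with a median of 0.05. The coactivator Ppargc1a differed by 0.12 (SE 0.14), Nrf1, whose protein binds the NRF1 letters, by 0.04 (SE 0.11), Gabpa, the DNA-binding part of GABP, by 0.23 (SE 0.16), the nuclear receptor Esrra by -0.11 (SE 0.11), and Tfam, which packages mitochondrial DNA, by 0.19 (SE 0.22). Each of these had a limma adjusted p of 0.726 or more, and in each the groups overlapped.

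Upstream and parallel pathways gave the same count. None of 19 genes of the citric acid cycle and pyruvate dehydrogenase passed the threshold (median 0.08, 16 positive), none of 17 mitochondrial carriers and porins (median 0.08), none of 78 mitochondrial ribosomal proteins (median 0.04, 59 positive), none of 16 glycolysis genes (median 0.12), none of 15 hypoxia response genes (median 0.05) and none of 80 cytosolic ribosomal proteins (median -0.04, 26 positive). At an unadjusted p under 0.05 these 6 lists held 2 higher and 5 lower genes, beside 3.11% higher and 5.89% lower among all probes. Of the lower genes, 3 were among the 15 hypoxia response genes: Vegfa (-0.48), Ankrd37 (-0.42) and Slc2a1 (-0.35). In that list 9 of 15 differences were positive. Another was the glycolysis gene Aldoc (-0.63, limma adjusted p = 0.0921). Per array, the citric acid cycle list stood at 0.01, -0.04, 0.16 and 0.27 in Glis3KO2 and at -0.0039, 0.06, -0.07 and -0.02 in WT, so that replicate 4 of Glis3KO2 was again the highest array. That array was also the highest for carriers and porins, mitochondrial ribosomal proteins and glycolysis, each at 0.21. For cytosolic ribosomal proteins it was level with WT replicate 2 at 0.11. For hypoxia response genes it stood at 0.08, below Glis3KO2 replicate 3 at 0.09.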

How the data were processed

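Values were spot intensity values on a linear scale that the authors deposited; per the file headers they are the processed signal of Agilent Feature Extraction 9.5.3.1 (9.5 per the submitters' processing notes), with background method code 7 and probe positions of build mm7. The deposited series table held the same 45018 values on each array. Here the log2 of each signal was set against that of the array's own 75th percentile, taken over spots that are not controls (460 to 694 before scaling). Outlier spots (56 to 130 per array) were removed, no spot was saturated, and spots of a probe were averaged. Probes well above background on 4 or more of 8 arrays were fitted with limma 3.58.1 in R 4.3.3 (lmFit, eBayes, genotype as the only term, 2-sided), with p-values adjusted by Benjamini and Hochberg's method across the 33239 probes fitted and a threshold of 0.05, and the fit was checked on simulated data. The members' p-values come from that fit, and lists were described by counts and medians. Symbols and promoters came from RefSeq (GRCm38.p6), and all 83 members matched.

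Genes named with values were the 2 largest positive and 2 largest negative structural members of complexes I, III, IV and V, the complex II genes, Cycs, Cyc1, the isoform families of complexes IV and V, and 5 regulators. Members named beyond these (core subunits of complex I, the other X-linked genes, the second probes, Ndufv3, Uqcr10) were chosen after their values were seen. So were the markers Adipoq, Iapp, Pdx1, Acta1, Actc1, Ckm, Myh3 and Prdm16 and the pathway genes Vegfa, Ankrd37, Slc2a1 and Aldoc. The members, lists and named genes were chosen with earlier results of these data known. Cox7b2 and Ndufa4l2 were not analysed here, and the values of 1 complex I member are not reported here.

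Alternatives were normexp background correction (offset 50), quantile normalization, scaling to the array median or to spike-ins, other filters on dim probes, the deposited table, a replicate block, trend and robust eBayes, array weights, Xist as a covariate, averaging the probes of each gene, and leaving out each array in turn or Glis3KO2 replicates 3 and 4 together. Adding the genes under older names was chosen after seeing the data. Figures were drawn in Python 3.11.15 with matplotlib 3.10.9.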

Additional observations from a re-analysis of the deposited data

Results flagged for a closer look

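Of 165 groups of 4 samples examined among the members, 6 held a sample that stood apart from the other 3 by more than Dixon's critical value allows, and chance alone gives this in about 1 in 20 groups. In Glis3KO2, replicate 1 was the lowest for Ndufa6 at 3.28, with the next sample at 3.57, and replicate 4 was the highest for Ndufc2 at 5.04, with the next at 4.79. In WT, replicate 3 was the lowest for Atp5k at 3.38 and for Atp5l at 4.69, with the next samples at 3.53 and 4.99. Also in WT, replicate 2 was the highest for Ndufs7 at 4.27, with the next at 4.17, and replicate 4 was the highest for Cox6b2 at 0.07, with the next at -0.06.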

How the results depend on the processing

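Under each of the 22 alternatives, including the added one, 0 members passed the threshold (limma adjusted p under 0.05). The deposited table held the same values and the added genes were read from the main fit, so neither could change the members' p-values. Leaving out each array in turn left 1 to 2 members at an unadjusted p under 0.05 in limma. The members' median of 0.06 ran from -0.01 to 0.11 when each array was left out, was 0.0012 with Xist as a covariate, and was 0.33 when scaled to the 10 spike-in probes, whose own median difference was -0.28. That scaling moved the median of all tested probes to 0.27, and the members stood 0.07 above it. Both scalings subtract the same value from every probe of an array, so this distance was bound to stay as with the 75th percentile. With the added genes the median was 0.06. The 85 probes past the threshold became 54 with spike-in scaling, 51 with no filter on dim probes, 143 with trend and robust eBayes, 27 with Xist as a covariate, 11 without Glis3KO2 replicates 3 and 4 together, and 35 to 96 when each array was left out; the causes were not tested. With the replicate block there were 15. The replicate numbers did not pair the samples (correlations of 0.13, 0.09, 0.24 and -0.04 between samples of one number, and 2 of 4 numbers correlated best with their own), and the block left 0 members past the threshold.

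No named member was past the threshold, so the changes of sign below are among differences that failed the test. Those under spike-in scaling come from a single shift shared by all probes and are not separate results for each gene. Scaled to the spike-ins, differences became 0.23 for Atp5g3, 0.10 for Atp5l, 0.20 for Cox7a2l, 0.25 for Cox8a, 0.18 for Cox8b, 0.07 for Ndufa6, 0.12 for Ndufb11, 0.22 for Sdhb, 0.20 for Uqcrb and 0.20 for Uqcrh. Without Glis3KO2 replicates 3 and 4 together they became -0.00042 for Cox7a2, -0.04 for Cox7c, 0.01 for Cox8a, 1.39 for Cox8b, -0.12 for Cycs, -0.03 for Ndufa4, -0.09 for Sdha and -0.05 for Sdhd. With Xist as a covariate they became -0.01 for Atp5g1, -0.01 for Cycs and -0.04 for Ndufa4, with normexp -0.0017 for Cox4i2, and with quantile normalization 0.07 for Cox8b. Leaving out each array in turn gave -0.01 to 0.10 for Cox7b, -0.08 to 0.02 for Cox8a, -0.71 to 1.03 for Cox8b, -0.03 to 0.27 for Cycs, -0.01 to 0.13 for Sdhd and -0.23 to 0.02 for Uqcrb. The Cox8b probe was well above background on 3 of 4 Glis3KO2 arrays and 4 of 4 WT arrays.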
